A study of Mus musculus with 2 samples.

Results

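The SOX factors other than Sox2 are 7 genes of the transcription factor family whose DNA-binding domain, the HMG box, is related to that of the testis-determining factor SRY. They are Sox1, Sox4, Sox7, Sox11, Sox12, Sox13 and Sox15, taken by name from a table of 14398 genes, in which each had 1 row and a mean of both libraries above the floor of 50 used here. RNA sequencing compared 46C cells that overexpressed ID2 (PB-ID2) with 46C cells carrying an empty vector (PB), with 1 library in each group. The 46C line is a mouse embryonic stem cell line with a green fluorescent protein reporter in the Sox1 locus, and both cultures shared this reporter, passages 21 to 24, gelatin-coated plates and serum medium with leukemia inhibitory factor. ID2 has a helix-loop-helix domain for pairing but no part that contacts DNA, and holds its partners, the E proteins, away from their target sites. The labels do not say whether a culture was a clone or a pool of transfected cells.

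SOX proteins bind the minor groove of DNA through the HMG box, bend it, and act together with partner factors such as POU proteins. The family is divided into lettered groups by the similarity of the box. Group B1 (Sox1, Sox2, Sox3) maintains neural progenitors, and Sox2 of that group also sustains pluripotency with OCT4. Group C (Sox4, Sox11, Sox12) acts in progenitors and in neuronal differentiation, group D includes Sox13, group F (Sox7, Sox17, Sox18) acts in extraembryonic endoderm and in endothelium, and group G is Sox15 alone.

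The opening 81 bases of the coding sequence of the HMG box show how near the members stand to each other and to Sox2, and thus where reads of different members could be confused. They were read from the GENCODE M21 mouse transcripts, with capitals at bases that differ from Sox2.
Sox2: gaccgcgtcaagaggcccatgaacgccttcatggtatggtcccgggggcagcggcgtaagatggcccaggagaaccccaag
Sox1: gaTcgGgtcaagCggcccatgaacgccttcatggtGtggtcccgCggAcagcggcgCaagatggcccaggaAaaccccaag
Sox15: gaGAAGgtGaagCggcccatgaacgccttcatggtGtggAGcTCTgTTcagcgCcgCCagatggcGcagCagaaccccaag
Sox4: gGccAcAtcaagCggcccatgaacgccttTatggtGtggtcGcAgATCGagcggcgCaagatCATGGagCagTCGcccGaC
Sox11: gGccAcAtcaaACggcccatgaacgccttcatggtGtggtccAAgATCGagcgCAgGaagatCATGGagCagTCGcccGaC
Sox12: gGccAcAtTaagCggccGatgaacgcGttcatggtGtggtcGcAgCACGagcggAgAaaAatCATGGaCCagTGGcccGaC
Sox13: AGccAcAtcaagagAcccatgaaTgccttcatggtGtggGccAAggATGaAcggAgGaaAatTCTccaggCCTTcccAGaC
Sox7: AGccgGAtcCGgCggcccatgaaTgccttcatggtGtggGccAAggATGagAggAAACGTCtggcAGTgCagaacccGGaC

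Sox1 differed from Sox2 at 8 of these 81 bases, Sox15 at 19, and Sox7 at 30. Over the whole box of 237 bases, Sox1 shared 89.5% of its bases with Sox2, Sox4 shared 89.5% with Sox11, and Sox12 shared 85.2% with Sox4 and 84.4% with Sox11. Sox13 and Sox15 had the least in common of any member pair, at 57.4%. The longest run of identical bases between transcripts was 38 for Sox1 and Sox2, 48 for Sox4 and Sox11, and 35 for Sox7 and Sox13. The read length is not given in the sources used here, so whether reads were shared within a group was not tested.

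Each gene has a normalized value per library, made by the authors, whose unit is a whole number of steps of 1.005 in the ID2 library and 0.9952 in the empty vector library. Both libraries hold the same set of whole numbers in a different order, so the values are not plain read counts and their sequencing depth is unknown. Since neither group was replicated, differences below carry no error, no test and no p-value of their own, and "higher" and "lower" compare the ID2 library with the empty vector library. Log2 ratios were computed after adding 1 to both values, and a gene was called 2-fold apart by the size of this ratio. Id2 stood at 26225 in the ID2 library and at 324 in the empty vector library, the direction that the labels give.

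Of the 7 members, 2 were at least 2-fold higher in the ID2 library (Sox7 and Sox1) and 1 was at least 2-fold lower (Sox11). Of all 12679 genes that passed the floor, 2.53% reached such a ratio upward and 1.86% downward. Sox12 and Sox13 were higher, and Sox4 and Sox15 lower, each by less than 1.5-fold. The median log2 ratio of the members was 0.21, against −0.00229 over all genes above the floor, of which 5982 were higher, 6534 lower and 163 equal. That median was 0.00166 without Sox1, and also with a floor of 250, which leaves out Sox7. The members thus had no common direction, and Sox7 was the single member over 4-fold apart, a size that 0.181% of all genes reached upward. Sox7 passed the floor through its ID2 value alone, and its mean was low. Among the 1268 genes above the floor with means up to 101, as that of Sox7 was, 8.91% were at least 2-fold higher. At its level a 2-fold ratio was thus more common than the share of all genes shows. Its own ratio was larger than that of 99.7% of these 1268 genes. That share is a description only, since its ID2 value alone took Sox7 past the floor.

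**Figure D1:**
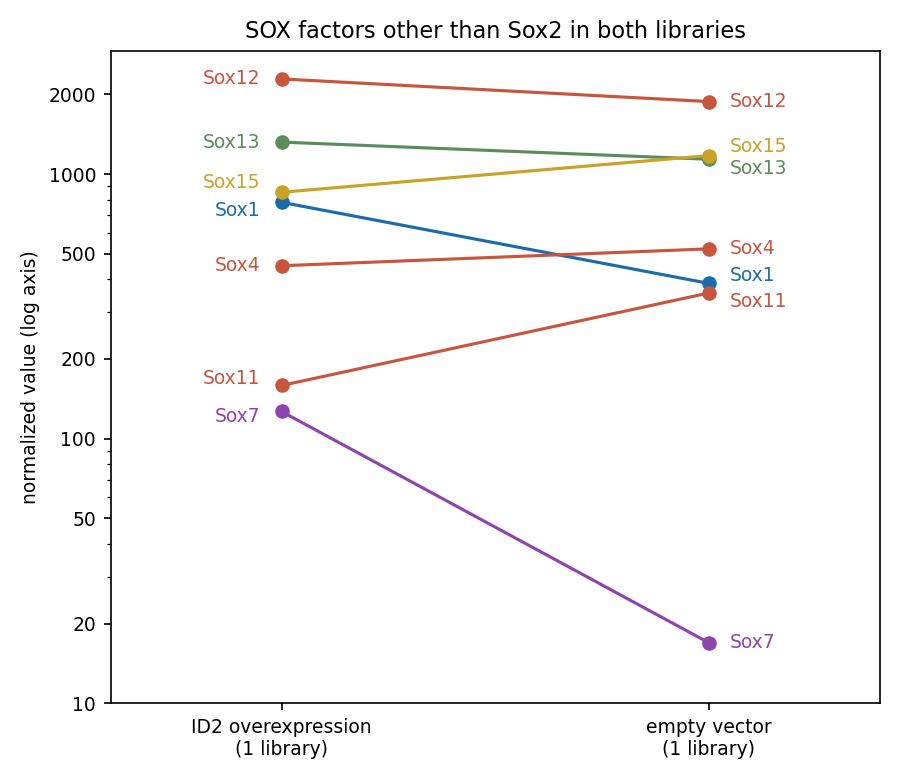
Normalized value of each of the 7 SOX members (log axis) in the ID2 overexpression library and the empty vector library, 1 point per library, joined by a line and coloured by SOX group. Sox7 stood at 127 in the ID2 library and 16.9 in the empty vector library, Sox1 at 782 with ID2 and 386 with empty vector, and Sox11 at 159 with ID2 and 355 with empty vector, while the other 4 lines are less steep.

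Sox1, of group B1, is among the earliest markers of the neural plate and is the gene that holds the reporter of these cells. Its value was 782 in the ID2 library and 386 in the empty vector library, a 2.02-fold difference (log2 ratio 1.02). That lies barely past the 2-fold line, and with a pseudocount of 10 in place of 1 the log2 ratio was 0.999, just under it. Among the 1268 genes of its level bin, that is the tenth of the genes above the floor whose means lay between 536 and 789, 1.34% were at least 2-fold higher. The authors' deposited table lists Sox1 with a p of 0.0139 and an adjusted p of 0.846. One allele of Sox1 carries the reporter in this line, and how reads from that allele were counted is not given in the sources used here.

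Sox2, the pluripotency factor of the same group, stood at 15076 in the ID2 library and 11692 in the empty vector library, a log2 ratio of 0.37. Sox3, the third B1 gene, fell under the floor, with 16.1 in the ID2 library and 37.8 in the empty vector library. Sox21, of group B2, whose proteins mostly repress the genes that B1 proteins activate, was almost equal in both libraries (390 in the ID2 library and 382 in the empty vector library).

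Markers of neural progenitors, the cells in which Sox1 is best known, went both ways. Of 19 listed genes, 9 had a row in the table and 7 were above the floor, of which 3 were higher and 4 lower, with a median log2 ratio of −0.03. Zfp521, a zinc finger factor of early neural commitment, stood at 115 in the ID2 library and 33.8 in the empty vector library (log2 ratio 1.73). It was the only gene of the 7 that was 2-fold apart, beside 2.53% of all genes at least 2-fold higher. Like Sox7, it passed the floor through its ID2 value alone and lay in the lowest level bin, where 8.91% of genes were 2-fold higher. Otx2, a forebrain and epiblast homeobox factor, stood at 432 with ID2 and 269 with empty vector (0.68). Nes, an intermediate filament of neural progenitors, stood at 231 in the ID2 library and 425 in the empty vector library (−0.88), and the RNA-binding protein gene Msi1 at 2337 with ID2 and 2788 with empty vector (−0.25). The summed value of the list was 4368 in the ID2 library and 4790 in the empty vector library. Msi1 made up most of it in both libraries, so the sum says little of the other genes. Pax6, Zic1, Olig2 and Hes5, defining markers of this cell type, had no row and were not analysed here. The part of such cells in the Sox1 difference was not tested. In RNA from whole cultures, a change in the number of cells of a type and a change in RNA per cell cannot be told apart.

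Sox7, of group F, is a factor of primitive and parietal endoderm and of the hemogenic endothelium. It had the largest ratio of the members, with 127 in the ID2 library and 16.9 in the empty vector library, a 7.12-fold difference (log2 ratio 2.83). In whole numbers these are 126 steps in the ID2 library and 17 in the empty vector library. The ratio ranked 5 from the top among 12679 genes above the floor, a position given as a description, since Sox7 passed the floor through its ID2 value alone. Sox7 was also the lowest member by mean value (71.8), and ratios spread most at low levels: among the 1268 genes of its level bin, with means up to 101, 8.91% were at least 2-fold higher, and the log2 ratio ran from −1.24 at the 5th percentile to 1.35 at the 95th. The authors' deposited table lists Sox7 at 7.48-fold with a p of 0.00682 and an adjusted p of 0.617.

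**Figure D2:**
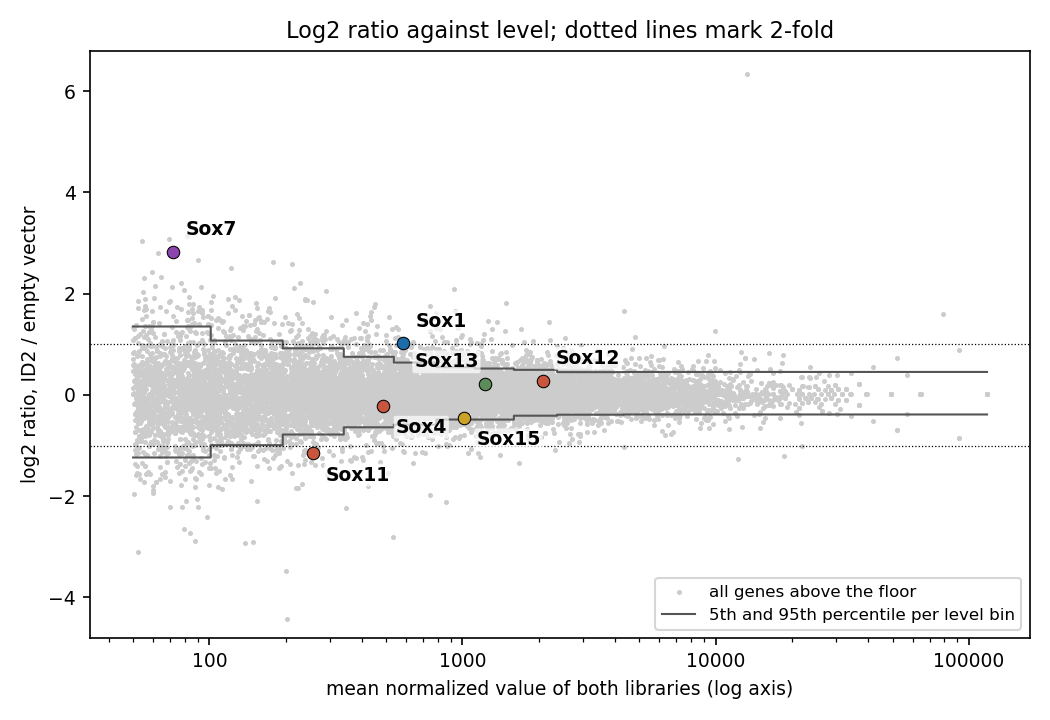
Log2 ratio of ID2 over empty vector for every gene above the floor (grey points) against the mean normalized value of both libraries (log axis), with the 7 SOX members coloured by SOX group, dotted lines at 2-fold, and stepped lines at the 5th and 95th percentile of each level bin. Sox7 (2.83), Sox1 (1.02) and Sox11 (−1.16) lie outside the stepped lines, and Sox4, Sox12, Sox13 and Sox15 lie within them.

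Other markers of extraembryonic endoderm showed no ratio of that size. Of 20 listed genes, 13 had a row and 11 were above the floor, with 7 higher, 4 lower and none 2-fold apart, and the median log2 ratio was 0.10. Hnf4a, a nuclear receptor of visceral endoderm, stood at 90.4 in the ID2 library and 51.7 in the empty vector library (0.79), and Fst, an activin antagonist, at 104 with ID2 and 55.7 with empty vector (0.88). Gata4, a zinc finger factor of primitive endoderm, stood at 76.4 in the ID2 library and 146 in the empty vector library (−0.93), and the laminin gene Lamb1 at 3385 with ID2 and 4265 with empty vector (−0.33). The summed value was 53479 in the ID2 library and 51035 in the empty vector library. Most of it was the laminin gene Lamc1, at 31757 with ID2 and 29207 with empty vector, so the sum says little of the other genes. Sox17 and Foxa2, defining markers of this cell type, had no row and were not analysed here. Under the floor, Gata6 stood at 34.2 in the ID2 library and 31.8 in the empty vector library, and Amn at 34.2 with ID2 and 55.7 with empty vector.

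Endothelial genes, the other setting in which Sox7 acts, were also divided. Of 14 listed genes, 7 had a row and 4 were above the floor, with 1 higher and 3 lower and a median log2 ratio of −0.13. Of these 4, 1 was at least 2-fold lower (Gata2). Eng, a co-receptor for transforming growth factor beta ligands, stood at 2235 in the ID2 library and 1465 in the empty vector library (0.61). Pecam1, an adhesion molecule of endothelium that mouse embryonic stem cells also express, stood at 3310 with ID2 and 3710 with empty vector (−0.16), and Tek, an angiopoietin receptor, at 355 with ID2 and 381 with empty vector (−0.10). Gata2, a factor of blood and endothelial progenitors, was 4.68-fold lower, with 122 in the ID2 library and 572 in the empty vector library (−2.23). The summed value was 6120 in the ID2 library and 6226 in the empty vector library. Kdr and Cdh5 had no row and were not analysed here. The 3 endothelial genes under the floor also went both ways: Tie1 stood at 44.2 in the ID2 library and 31.8 in the empty vector library, Tal1 at 40.2 with ID2 and 17.9 with empty vector, and Flt1 at 14.1 with ID2 and 47.8 with empty vector. The part of either cell type in the Sox7 difference was not tested.

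The group C genes took separate courses. Sox11, which acts in neuronal differentiation, stood at 159 in the ID2 library and 355 in the empty vector library, a 2.23-fold lower value (log2 ratio −1.16). Among the 1268 genes with means between 195 and 340, 2.68% were at least 2-fold lower. The authors' deposited table lists Sox11 with a p of 0.0376 and an adjusted p of 1. Sox4, a factor of lymphoid, cardiac and neural progenitors, stood at 450 in the ID2 library and 521 in the empty vector library (−0.21). Sox12, a broadly expressed member of the group, stood at 2288 in the ID2 library and 1879 in the empty vector library (0.28). Sox11 alone of the 3 lay outside the 5th to 95th percentile range of its level bin, which for Sox11 was −0.78 to 0.92.

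Per kilobase of transcript, the group C genes differed widely in level. Sox12 stood at 514 per kilobase in the ID2 library and 422 in the empty vector library, Sox4 at 93.9 with ID2 and 109 with empty vector, and Sox11 at 19.1 with ID2 and 42.7 with empty vector. Sox12 thus made up 82.0% of the group's summed value per kilobase in the ID2 library and 73.6% in the empty vector library, and Sox11 made up 3.05% in the ID2 library and 7.45% in the empty vector library. The summed value per kilobase of the group was 627 in the ID2 library and 573 in the empty vector library, so the lower Sox11 value went with a slightly higher total. Of the exonic bases of Sox4, 54.6% overlap Gm26735, a gene annotated on the opposite strand. The library kit does not mark strand, so reads of Sox4 and Gm26735 cannot be told apart over that stretch.

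Neuronal genes, among them genes that group C proteins are known to activate, went both ways by small ratios. Of 12 listed genes, 8 had a row and 7 were above the floor, with 2 higher, 5 lower and none 2-fold apart, and a median log2 ratio of −0.14, beside 5982 higher and 6534 lower of all 12679 genes. Neurod1, a proneural factor, stood at 95.5 in the ID2 library and 153 in the empty vector library (−0.68). The RNA-binding protein gene Elavl3 stood at 1027 with ID2 and 1578 with empty vector (−0.62), and Map2, a microtubule-associated protein of dendrites, at 197 with ID2 and 283 with empty vector (−0.52). Tubb3, a neuronal tubulin and a known target of SOX4 and SOX11, went the other way from Sox11, with 1336 in the ID2 library and 908 in the empty vector library (0.56). Tead2, another known target, stood at 3925 with ID2 and 4333 with empty vector (−0.14). The other genes of the list above the floor were the adhesion molecule gene Ncam1, at 1051 with ID2 and 785 with empty vector (0.42), and the stathmin gene Stmn2, at 6011 with ID2 and 6281 with empty vector (−0.06). Under the floor, Elavl4 stood at 40.2 in the ID2 library and 20.9 in the empty vector library (0.91). Tead2, Ncam1, Stmn2 and Elavl4 were named after their values were seen. The summed value of the list was 13683 in the ID2 library and 14342 in the empty vector library, and Dcx, a defining neuronal marker, had no row and was not analysed here. The part of such cells in the Sox11 difference was not tested.

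Sox13, of group D, is known for its role in gamma delta T cells and as a modulator of Wnt signaling through TCF proteins. It stood at 1320 in the ID2 library and 1137 in the empty vector library (log2 ratio 0.21). The ratio was larger than that of 78.6% of the genes in its level bin. The authors' deposited table lists Sox13 with an adjusted p of 1.

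Sox15, the group G gene, can pair with OCT4 in mouse embryonic stem cells and is needed for normal skeletal muscle regeneration in mice. It stood at 853 in the ID2 library and 1174 in the empty vector library, a 1.38-fold lower value (log2 ratio −0.46). Of the genes in its level bin, 5.68% had a lower ratio, and the 5th percentile of that bin was −0.49. The authors' deposited table lists Sox15 with a p of 0.190 and an adjusted p of 1. Its exons share 31 bases with Mpdu1 on the other strand, which stood at 1696 in the ID2 library and 1885 in the empty vector library.

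Genes above the floor from the tissues in which Sox15 is studied were none of them 2-fold apart, though some had larger ratios than Sox15. Over so few genes this is near the shares of all genes above the floor, 2.53% upward and 1.86% downward. Both skeletal muscle genes above the floor, of 7 listed, were lower (median log2 ratio −0.15): the intermediate filament gene Des stood at 1477 in the ID2 library and 1809 in the empty vector library (−0.29), and Foxk1, whose protein binds SOX15 in muscle progenitors, at 1780 with ID2 and 1798 with empty vector (−0.02). Of 14 trophoblast genes, 6 were above the floor, with 3 higher, 3 lower, none 2-fold apart and a median of −0.06. Among them Tfap2c, an AP-2 factor, stood at 2150 in the ID2 library and 3697 in the empty vector library (−0.78), and Ascl2, a bHLH factor, at 143 with ID2 and 236 with empty vector (−0.72). Tead4, a Hippo effector, stood at 1846 with ID2 and 1367 with empty vector (0.43), and Eomes, a T-box factor, at 219 with ID2 and 163 with empty vector (0.42).

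**Figure D3:**
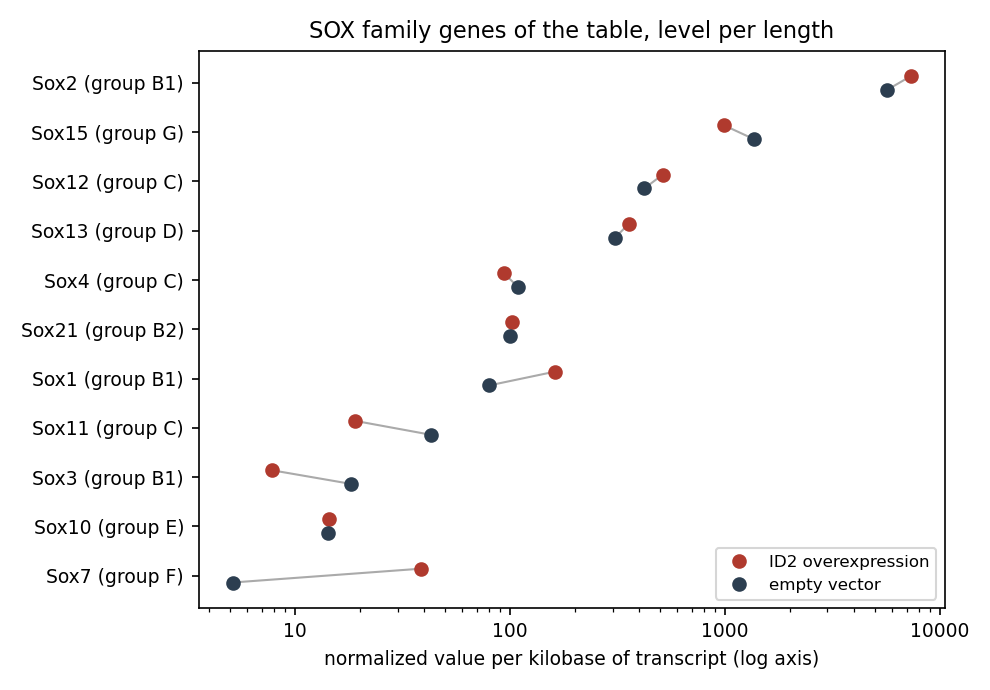
Normalized value per kilobase of transcript (log axis) of the 11 SOX family genes with a row in the table, ordered by the empty vector value, with the ID2 overexpression library above the empty vector library in each row, 1 point per library. Sox2 is the highest gene in both libraries, Sox15 is the highest of the 7 members, and Sox7 stands above Sox11 in the ID2 library and below it in the empty vector library.

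Set per length, the 3 highest members came in the same order in both libraries. Sox15 was the highest of the 7, with 991 per kilobase in the ID2 library and 1364 in the empty vector library, followed in both libraries by Sox12 and then by Sox13 (358 in the ID2 library and 308 in the empty vector library). Sox1 came next in the ID2 library, at 162 per kilobase, but stood at 79.9 in the empty vector library, below Sox4. Sox7 stood at 38.4 per kilobase in the ID2 library, above Sox11, and at 5.13 in the empty vector library, where it was the lowest member. With 1 library in each group, whether neighbours in this order differ beyond their spread cannot be tested.

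Of the 20 SOX family genes looked for, 11 had a row, 4 of them not members (Sox2, Sox3, Sox10 and Sox21). Sox10, a neural crest factor of group E, lay under the floor at 40.2 in the ID2 library and 39.8 in the empty vector library. Sox2 alone made up 76.1% of the summed value per kilobase of these 11 genes in the ID2 library and 69.8% in the empty vector library, and the 7 members made up 22.6% in the ID2 library and 28.6% in the empty vector library. Sox15 made up 10.3% in the ID2 library and 16.7% in the empty vector library. Together the members summed to 2175 per kilobase in the ID2 library and 2330 in the empty vector library.

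Upward 2-fold ratios, but not downward ones, were more frequent here among coding genes made mostly of 1 exon. Coding genes above the floor with at least 80% of their longest transcript in 1 exon, a class known from earlier results of these data, numbered 1705, of which 6.86% reached a 2-fold ratio upward and 1.41% downward. Among the 9803 other coding genes, these shares were 1.54% upward and 1.45% downward. Sox1, Sox4, Sox11 and Sox12 each have 1 exon, Sox7 has 2 exons with 90.3% of its bases in the longer one, and all 5 belong to the first class, while Sox13 (14 exons) and Sox15 (2 exons, 68.1% in the longer one) do not. Among genes of that class in the level bin of Sox7, 17.1% were at least 2-fold higher, against 6.56% of other coding genes in that bin. In the bin of Sox1, 4.08% of the class and 0.891% of other coding genes were at least 2-fold higher. In the bin of Sox11, 1.72% of the class and 2.97% of other coding genes were at least 2-fold lower. The part of exon structure in the ratios of Sox7 and Sox1 was not tested.

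**Figure D4:**
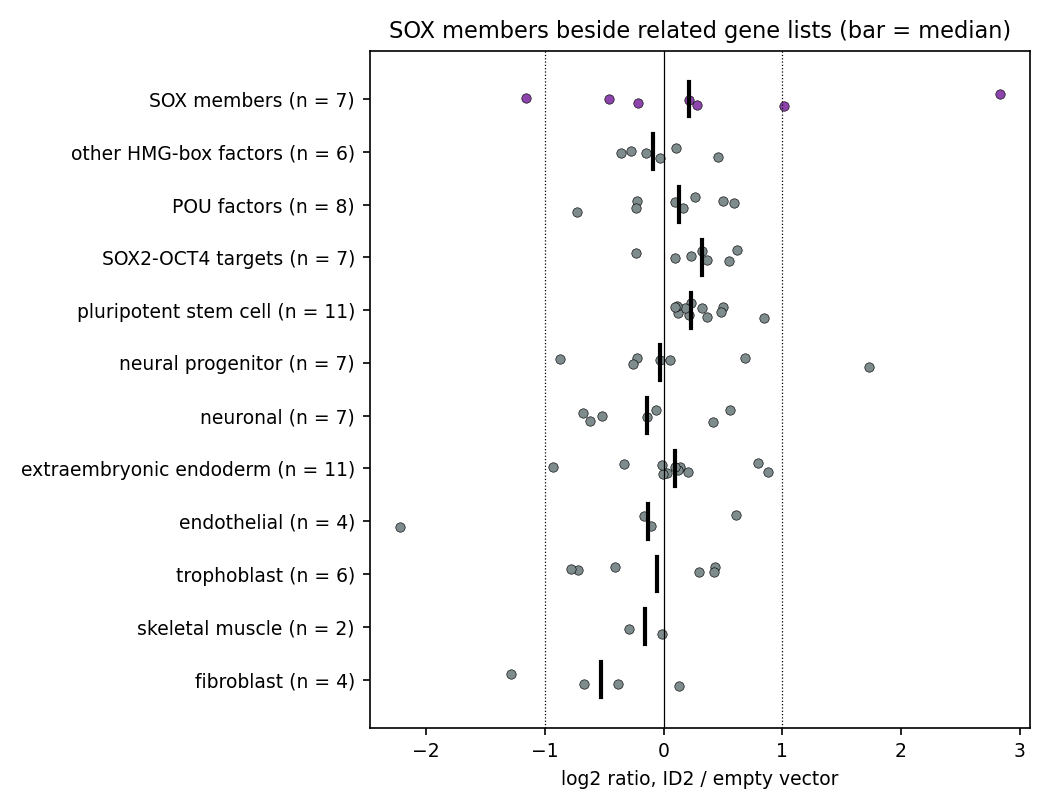
Log2 ratio of ID2 over empty vector for the 7 SOX members and for the members above the floor of 11 other gene lists, 1 point per gene, with a bar at each list's median and dotted lines at 2-fold. The SOX members run from −1.16 to 2.83, and the other HMG-box factors from −0.36 to 0.45.

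Other HMG-box factors bind DNA through a related domain. Of 7 listed genes 6 were above the floor, 2 higher and 4 lower, none 2-fold apart, with a median log2 ratio of −0.09. The other gene, Lef1, lay under the floor, at 6.03 in the ID2 library and 30.9 in the empty vector library. None of 6 past 2-fold is near the shares of all genes above the floor, 2.53% upward and 1.86% downward. Tcf7l1, a repressor of Wnt targets, stood at 1294 in the ID2 library and 944 in the empty vector library (0.45), and Tcf7, a Wnt effector, at 2004 with ID2 and 2573 with empty vector (−0.36). Hbp1, a cell cycle repressor, stood at 2281 with ID2 and 2760 with empty vector (−0.27), and Cic, a repressor that acts below receptor tyrosine kinases, at 6495 with ID2 and 7185 with empty vector (−0.15). POU factors, some of which bind DNA as partners of SOX proteins, had 8 of 15 genes above the floor, 5 higher and 3 lower, with a median of 0.13. Pou5f1, the gene of OCT4, stood at 13619 in the ID2 library and 12770 in the empty vector library (0.09). Pou4f2 stood at 453 in the ID2 library and 300 in the empty vector library (0.60), and Pou2f2 at 195 with ID2 and 137 with empty vector (0.50). Pou4f1 stood at 338 with ID2 and 281 with empty vector (0.27), and Pou2f3 at 157 with ID2 and 261 with empty vector (−0.73). Under the floor, Pou4f3 stood at 20.1 in the ID2 library and 57.7 in the empty vector library.

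Among 8 genes that SOX2 and OCT4 activate together, Sox2 itself included, 7 were above the floor, 6 higher and 1 lower. None was 2-fold apart, and their median log2 ratio was 0.32, beside −0.00229 over all genes, of which 5982 were higher and 6534 lower. Zscan10, a zinc finger factor, stood at 3033 in the ID2 library and 1979 in the empty vector library (0.62), Fbxo15, an F-box protein of pluripotent cells, at 1566 with ID2 and 1071 with empty vector (0.55), and Utf1, a chromatin factor, at 4775 with ID2 and 3823 with empty vector (0.32). The lower gene was Fgf4, at 6932 with ID2 and 8157 with empty vector (−0.23). Under the floor, Lefty1 stood at 58.3 with ID2 and 33.8 with empty vector. All 11 genes of a pluripotent stem cell list were present and higher, with a median of 0.23 and none 2-fold apart, so that the cells of both libraries held the markers of their labelled type. Zfp42 (0.85), Klf4 (0.50) and Esrrb (0.48) had the largest ratios of that list besides Sox2. Sox2, Utf1, Nanog and Pou5f1 are on this list and among the SOX2 and OCT4 targets, so these lists are not independent. Fibroblast genes, which would mark feeder or differentiating cells, had 4 of 10 genes above the floor, 3 lower and 1 higher, with a median of −0.53 and a summed value of 1491 in the ID2 library and 2272 in the empty vector library. Of these Col1a1 stood at 139 in the ID2 library and 339 in the empty vector library (−1.28), and Thy1 at 608 with ID2 and 966 with empty vector (−0.67). Pdgfrb stood at 589 with ID2 and 768 with empty vector (−0.38), and Fbn1 at 142 with ID2 and 129 with empty vector (0.13). Under the floor, Col1a2 stood at 7.03 with ID2 and 39.8 with empty vector, and Tnc at 7.03 with ID2 and 28.9 with empty vector. The part of fibroblast genes in the SOX ratios was not tested.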

How the data were processed

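RNA from 2 cultures was sequenced, 1 library per group. The build mm9 and the tools DESeq and STAR are named per the submitters' processing notes, with no versions; the sources used here give neither the counting tool nor the annotation. The deposited signal values of both libraries are the same whole numbers of steps in a different order (0 ranks differ, and both sum to 25224015 steps); no header or label names the step that made them so, and depth is unknown. The deposited fold (a ratio), its log2 and the authors' p-values are quoted as the authors'; those p-values rest on no spread measured between replicates.

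The log2 ratio of (value + 1) was computed for all genes, with a floor of 50 on the mean of both libraries (12679 genes) and 10 level bins of equal size. No test was run. Gene lengths, exons and sequences came from GENCODE M21 (GRCm38), whose build differs from mm9, so no coordinates are given. Python 3.11.15, pandas 2.3.3 and Biopython 1.88 were used, and the ratio was tested on simulated data.

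Named genes were the members, the other SOX genes, Id2, and up to 4 genes per list with the largest absolute ratio above the floor. Genes under the floor and others outside this rule were named after their values were seen (Gata6, Amn, Tie1, Tal1, Flt1, Mpdu1, Gm26735, Tead2, Ncam1, Stmn2, Elavl4, Fgf4, Lefty1, Nanog, Pou5f1, Lamc1, Lef1, Pou4f3, Col1a2, Tnc). Members and lists were chosen with earlier results of these data known. Alternatives covered scaling, pseudocounts of 0.1 and 10, floors, fold thresholds, the authors' log2 values and the reporter gene.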

Additional observations from a re-analysis of the deposited data

How the results depend on the processing

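Under other settings 79 values were recomputed, namely member ratios, counts of members and the median. No member ratio changed sign, which the counts and medians cannot show. Of the 79 values, 71 stayed within 0.1 on the log2 scale or 1.5 times the count, and 8 moved. Part of this outcome was fixed in advance. All members lay above the floor, so removing it could change none of their values. A higher floor cannot change the ratio of a member that it keeps, and a pseudocount added to both values cannot change a sign. The number that stayed is therefore no measure of robustness. With a pseudocount of 10 the log2 ratio of Sox7 was 2.34, and the count of members at least 2-fold higher was 1, since Sox1 fell below the line. That count was also 1 with a floor of 250, which leaves out Sox7, with a fold threshold of 4, and without Sox1. The count of members at least 2-fold lower was 0 with a fold threshold of 4. The median log2 ratio of the members was 0.00166 both with a floor of 250 and without Sox1, each of which leaves out a member that was higher. The alternative with Sox2 and Sox21 added to the members was chosen after seeing the data and changed none of these 3 summaries, and using the union of exons as length, chosen likewise, left the order per kilobase as it was. No paired analysis was possible because each group has 1 library. The unknown depth limits every ratio, and low values such as the 17 steps of Sox7 in the empty vector library rest on few steps.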
